A study of Mus musculus with 8 samples.

Results

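Bhlhe41, Bhlhe40, Arid3a, Lin28b, Zbtb32, Tcf4, Id2 and Id3 encode nuclear and RNA-binding factors that earlier work tied to the fate, identity or self-renewal of B-1 cells. They were taken by symbol from the deposited table, as 8 of its 24746 genes. The table holds RNA sequencing counts of bone marrow cells sorted by flow cytometry, with the mice 10 to 12 weeks of age. Control mice had intact miR-15a and miR-15b clusters (miR-15a/b+/+ Vav-Cre, 4 libraries). The other 4 libraries came from mice whose clusters were flanked by loxP sites on both alleles (miR-15a/bfl/fl Vav-Cre, the miR-15 dKO, dKO from here on). Both groups carried Vav-Cre, which is active in blood-forming cells and their descendants, so any other blood cell in a sort has the same genotype as the B cells. The cells are B1a B cells by the sample labels and pro-B cells by the text of the series.

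B-1a cells are long-lived B cells, many of them of fetal origin, that renew themselves and secrete natural antibody. In early life the RNA-binding protein LIN28B blocks the maturation of let-7 microRNAs, and let-7 represses Arid3a, so that LIN28B favours ARID3A and with it B-1 cell output. In mature mouse B-1a cells the related repressors BHLHE41 and BHLHE40 support maintenance, and ZBTB32 is a repressor found at high levels in the same cells. E proteins such as TCF4 drive B-lineage genes, and the ID proteins ID2 and ID3 bind E proteins and keep them off DNA.

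The microRNAs of the deleted clusters share their seed, bases 2 to 8, which is set in capitals in the mature sequences of the RefSeq table (build GRCm38.p6, 5′ to 3′). They are shown with let-7a, because the LIN28B axis acts through let-7.
mmu-miR-15a-5p: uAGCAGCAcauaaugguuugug
mmu-miR-15b-5p: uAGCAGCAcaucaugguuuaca
mmu-miR-16-5p: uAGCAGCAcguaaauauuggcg
mmu-let-7a-5p: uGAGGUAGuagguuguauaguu

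On that build the mature miR-15a lies on the minus strand at chr14:61632075-61632096 and miR-15b on the plus strand at chr3:69009775-69009796. A copy of miR-16 stands beside each. The match to the miR-15/16 seed is TGCTGCT and the match to the let-7 seed is CTACCTC. The motifs were searched on the transcript strand in the longest annotated 3′ UTR of each gene (GENCODE M21, GRCm38, which is not the GRCm39 build of the counts). Of the 8 regulators, Bhlhe41 and Lin28b held the miR-15/16 match, and Bhlhe41, Arid3a and Lin28b held the let-7 match. Bhlhe41 held 2 overlapping miR-15/16 matches that form 1 run, Arid3a held 2 let-7 matches and Lin28b held 1 miR-15/16 and 4 let-7 matches. The miR-15/16 matches of both genes and the let-7 matches of Arid3a are shown in capitals, since they concern the deleted microRNAs and the let-7 step of the axis.
Bhlhe41, miR-15/16, minus strand, chr6:145861642-145861671: tcgggtcgttTGCTGCTGCTgttgctactg
Lin28b, miR-15/16, minus strand, chr10:45378435-45378461: cacaccttgaTGCTGCTgcagcctgca
Arid3a, let-7, plus strand, chr10:79953900-79953926: aagtttctttCTACCTCaggtcttttg
Arid3a, let-7, plus strand, chr10:79954727-79954753: aaactgttttCTACCTCtggtcaggcc

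Such matches were common. TGCTGCT occurred in the 3′ UTR of 2645 of 10674 tested genes with one (24.8%) and CTACCTC in 1112 (10.4%). The Bhlhe41 3′ UTR is long, at 4609 bases, and of 952 3′ UTRs of 3457 to 5761 bases 56.8% held TGCTGCT and 23.9% held it at least 2 times. A match is a description of the letters in the annotation and does not show that a microRNA binds there. The 3′ UTRs of Bhlhe40, Zbtb32, Tcf4, Id2 and Id3 held neither motif.

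Depth was 25565090 to 34954230 counts per library, and 12489 to 13430 genes had at least 1 count. A level of 3 counts, the limit that a count of 0 allows, is 0.0858 to 0.117 CPM, counts scaled to a common library total. No library had a count for the genes of the deleted microRNAs themselves (0 in each of 8). Dleu2, the noncoding host gene of miR-15a and miR-16-1, was at 12.7 to 25.02 CPM in controls and 72.2 to 111 CPM in dKO, and the groups did not overlap. In the fit across all 11363 genes that passed the filter on low counts, 10 genes (0.0880%) had an adjusted p under 0.05, 7 higher and 3 lower in dKO. The B-1a label matched the markers better than the pro-B text did. Each of 13 B-1a markers, Bhlhe41 and Zbtb32 among them, averaged at least 1 CPM, while Kit had 0 counts and 6 of 10 pro-B markers were below 1 CPM. Each of 9 markers of follicular B-2 cells, another B cell type, also averaged at least 1 CPM. This level therefore does not tell B-1a cells from follicular B-2 cells. Hba-a1, Hba-a2, Hbb-bs and Hbb-bt, the globin genes, were at 0.

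Controls 2 and 4 stood apart from the other 6 libraries in markers of another B cell type. The mean of 9 follicular B-2 markers, the conventional recirculating B cells, was 7.03 and 7.07 log2 CPM in controls 2 and 4. It was 5.20 and 4.91 in controls 1 and 3 and 4.80 to 5.51 in dKO. The mean of the 11 B-1a markers that are not among the 8 regulators was lowest in the same libraries, at 4.96 and 4.89, against 5.82 and 5.52 in controls 1 and 3 and 6.17 to 6.40 in dKO. Summed follicular markers ranged from 1156 to 2864 CPM in controls and from 1163 to 1594 CPM in dKO. The fold change of each regulator is therefore given with and without controls 2 and 4, a choice made after seeing the marker values. In bulk libraries fewer cells of a type and less RNA per cell cannot be told apart, and the part of the marker difference in each result was not tested.

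No regulator passed the test between genotypes. Of the 7 that could be tested, 6 had a fold change above 0, against 47.7% of all genes, and their median log2 fold change was 0.40, against -0.016 over all genes. At an unadjusted p under 0.05 there were 3 regulators, Bhlhe41, Arid3a and Tcf4, each with a higher mean in dKO. The background of that rule was 10.8% of genes in either direction and 5.98% with dKO higher. None of these 3 passed that rule without controls 2 and 4 or with the follicular B-2 marker mean as a covariate, where Id3 alone did (background 14.2% and 10.4%). Without controls 2 and 4 the count above 0 was again 6 of 7, with 53.4% of all genes above 0, and the median was 0.25. DESeq2 called 0 regulators, with 2.83% of genes called, and limma voom called 0, with 2.48% called. The lowest adjusted p of a regulator in DESeq2 was 0.14, for Arid3a. In limma voom the adjusted p was 0.069 for Bhlhe41 (log2 fold change 1.16), 0.095 for Tcf4 (0.475), 0.12 for Arid3a and 0.18 for Zbtb32. For Id2, Bhlhe40 and Id3 it was 0.67 to 0.94 in limma voom. None of the 7 had groups that did not overlap, which 6.96% of tested genes had. The regulators are few, and the counts describe them without a test of the list.

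**Figure D1:**
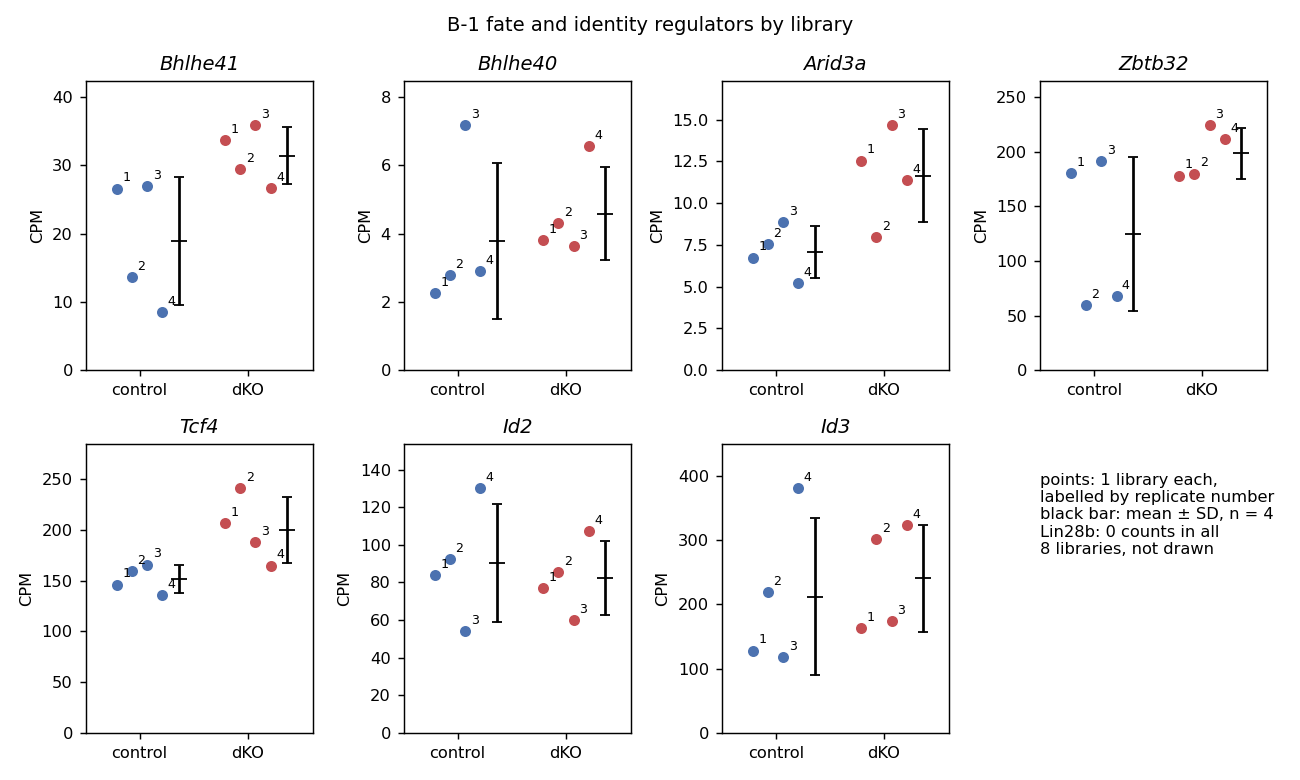
CPM of the 7 detected regulators in each library, in panels with their own axes from 0. Points are single libraries labelled by replicate number, and black bars give the mean and SD of 4 libraries. Controls 2 and 4 are the low libraries for Bhlhe41 and Zbtb32, control 3 is the high one for Bhlhe40 and control 4 the high one for Id3.

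Bhlhe41, the repressor also known as DEC2, was at 26.6, 13.7, 27.0 and 8.504 CPM in controls 1 to 4. In dKO libraries 1 to 4 it was at 33.7, 29.5, 35.9 and 26.6 CPM. Controls 2 and 4 were low, and 3 dKO libraries lay above the highest control. The means were 18.9 ± 9.31 CPM in controls and 31.4 ± 4.17 in dKO (mean ± SD, n = 4 each). The log2 fold change was 0.73 with an SE of 0.32 (95% interval 0.025 to 1.44; later ± values of fold changes are also SEs), with an adjusted p of 0.44 in edgeR. Without controls 2 and 4 the log2 fold change was 0.23 (-0.17 to 0.63, adjusted p 0.59).

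The spread of Bhlhe41 among controls came with controls 2 and 4. Its coefficient of variation was 0.492 in controls and 0.133 in dKO, and the highest control was 3.17 times the lowest, against 1.35 times in dKO. Controls 1 and 3 alone differed by 1.01 times. Bhlhe41 is the 1 detected regulator whose 3′ UTR holds the miR-15/16 match shown above, and its difference between genotypes did not pass the test.

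Bhlhe40, the close relative DEC1, was at 2.26, 2.80, 7.18 and 2.90 CPM in controls 1 to 4. In dKO it was at 3.81, 4.31, 3.64 and 6.57 CPM. Control 3 was the highest of all libraries, no dKO library lay above it, and the other 3 controls lay below every dKO library. The means of 3.78 ± 2.28 and 4.58 ± 1.36 CPM gave a log2 fold change of 0.28 ± 0.38 (-0.56 to 1.12, adjusted p 0.86). Leaving out control 3 alone raised the estimate to 0.79 (adjusted p 0.34), and leaving out controls 2 and 4 gave -0.041 (adjusted p 0.98), while it stayed between 0.041 and 0.79 with any 1 library left out.

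Lin28b had 0 counts in each of the 8 libraries, which allows at most 0.0858 to 0.117 CPM. The let-7 blocker was below what these libraries could detect in both genotypes, and its miR-15/16 and let-7 matches have no transcript level to be read against. Its paralog Lin28a also had 0 counts.

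Arid3a, the DNA-binding factor downstream of LIN28B and let-7, was detected in every library. It was at 6.74, 7.54, 8.87 and 5.19 CPM in controls 1 to 4 and at 12.5, 7.98, 14.7 and 11.4 CPM in dKO. Libraries 1, 3 and 4 of dKO lay above every control, and dKO 2 lay within the control range. The means were 7.09 ± 1.54 and 11.7 ± 2.80 CPM, a log2 fold change of 0.72 ± 0.24 (0.20 to 1.24, adjusted p 0.27). Leaving out controls 2 and 4 gave 0.58 (-0.022 to 1.182, adjusted p 0.37).

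Zbtb32, a zinc finger repressor that with BLIMP1 silences Ciita in mouse B cells, was one of the more abundant regulators. It was at 180.5, 59.6, 191 and 68.1 CPM in controls 1 to 4 and at 178, 180.2, 225 and 211 CPM in dKO. Controls 2 and 4 were far below the rest, whereas controls 1 and 3 lay within the dKO range. The means of 125 ± 70.7 and 199 ± 23.0 CPM differed by a log2 fold change of 0.67 ± 0.36 (-0.14 to 1.48, adjusted p 0.56). Without controls 2 and 4 it was 0.098 (-0.27 to 0.46, adjusted p 0.84).

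Tcf4, the E protein E2-2, was the evenest regulator among controls, at 146, 159.7, 166 and 136 CPM. In dKO it was at 206, 242, 188 and 165 CPM. dKO 4 lay just below the highest control and the other 3 lay above it. The means were 152 ± 13.6 and 200.3 ± 32.3 CPM, a log2 fold change of 0.40 ± 0.15 (0.062 to 0.74, adjusted p 0.37), and 0.36 (-0.044 to 0.77, adjusted p 0.40) without controls 2 and 4. Plasmacytoid dendritic cells also express Tcf4. Their marker Siglech had 0 to 28 counts per control library and 0 to 24 per dKO library, and their 11 markers summed to 296 to 669.7 CPM in controls and 288 to 431 CPM in dKO. Most of each sum was Bst2 (185 to 239 CPM in controls, 152 to 232 in dKO) and Irf8 (58.5 to 223 and 44.5 to 101). Irf8 was highest in controls 2 and 4, and 3 of the 11 markers averaged below 1 CPM. The part of these cells in the Tcf4 values was not tested.

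Id2, an inhibitor of E proteins that is also high in NK and other innate lymphoid cells, was at 84.1, 92.5, 54.2 and 130.3 CPM in controls 1 to 4. In dKO it was at 76.8, 85.3, 60.0 and 107 CPM. Replicate 3 was lowest and replicate 4 highest in each genotype, and the groups overlapped throughout. The means of 90.3 ± 31.3 and 82.3 ± 19.6 CPM gave a log2 fold change of -0.13 ± 0.25 (-0.69 to 0.42, adjusted p 0.91), which turned to 0.25 (-0.28 to 0.79, adjusted p 0.67) without controls 2 and 4. Summed NK cell markers were at 18.6 to 192 CPM in controls and 68.4 to 187 CPM in dKO.

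Id3, the other inhibitor, was at 128, 219, 117 and 381 CPM in controls 1 to 4 and at 163, 301, 173 and 323 CPM in dKO. Controls 2 and 4, low for Bhlhe41 and Zbtb32, were the high controls here. The means were 212 ± 122 and 240.2 ± 83.7 CPM, a log2 fold change of 0.18 ± 0.39 (-0.68 to 1.05, adjusted p 0.92). Without controls 2 and 4 it was 0.97 (0.33 to 1.61, adjusted p 0.19), the largest estimate among the 7 regulators in that fit, with every dKO library above controls 1 and 3. T cell markers, whose carriers also express Id3, averaged 4.44 and 4.08 log2 CPM in controls 2 and 4, 3.50 and 2.41 in controls 1 and 3 and 3.38 to 4.28 in dKO. Their part in the Id3 values was not tested.

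**Figure D2:**
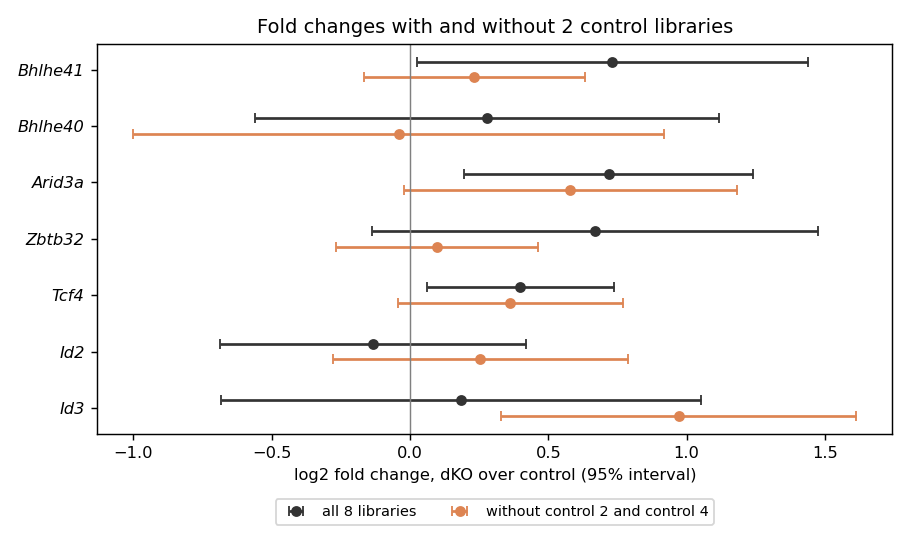
Log2 fold change (dKO over control) of the 7 tested regulators with 95% intervals from edgeR, in all 8 libraries (black) and without controls 2 and 4 (orange). Bhlhe41 goes from 0.73 to 0.23 and Zbtb32 from 0.67 to 0.098, Arid3a from 0.72 to 0.58 and Tcf4 from 0.40 to 0.36, with intervals that then include 0, and Id3 goes from 0.18 to 0.97.

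Fitting the follicular B-2 marker mean of each library as a covariate, also chosen after seeing the data, gave values close to those without controls 2 and 4. The covariate was 7.03 and 7.07 in controls 2 and 4 and 4.80 to 5.51 in the other libraries. It thus mainly sets the same libraries apart and is not a separate check. The log2 fold change was 0.25 for Bhlhe41, 0.21 for Zbtb32, 0.56 for Arid3a, 0.33 for Tcf4 and 0.96 for Id3, and none passed the test. In the plot against the follicular markers, Bhlhe41 and Zbtb32 separate controls 2 and 4 from the other libraries, whereas Tcf4 does so little.

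**Figure D3:**
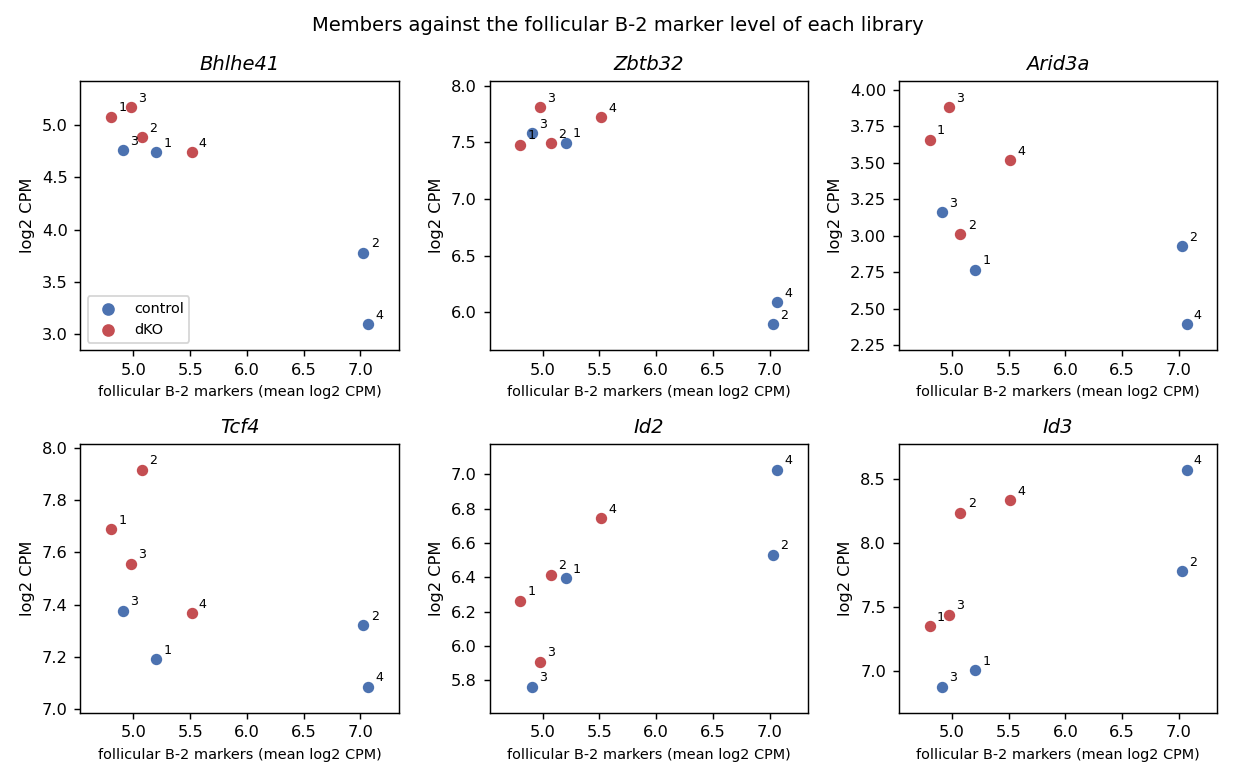
Log2 CPM of 6 regulators (y) against the mean log2 CPM of follicular B-2 markers (x), 1 point per library, blue for control and red for dKO, labelled by replicate number. Controls 2 and 4 lie at 7.03 and 7.07 on the x axis, with the lowest Bhlhe41 and Zbtb32 of the 8 libraries. For Id2 and Id3 control 4 is the highest library, and control 2 lies among the dKO libraries.

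Levels of different genes were compared per kilobase of annotated exon. The means over 8 libraries were 126 CPM per kb for Id3, 68.6 for Zbtb32, 35.4 for Id2, 6.43 for Tcf4, 3.75 for Bhlhe41, 1.68 for Arid3a and 0.889 for Bhlhe40. Id3 was above Zbtb32 in 6 of 8 libraries and Zbtb32 above Id2 in 6, so neighbours at the top changed places between libraries. From Id2 to Tcf4, Tcf4 to Bhlhe41, Bhlhe41 to Arid3a and Arid3a to Bhlhe40, each step held in 8 of 8 libraries. By longest coding transcript the last step, from Arid3a to Bhlhe40, held in 7. Tcf4 has many annotated exons, and by its longest coding transcript its level was 20.5 CPM per kb.

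**Figure D4:**
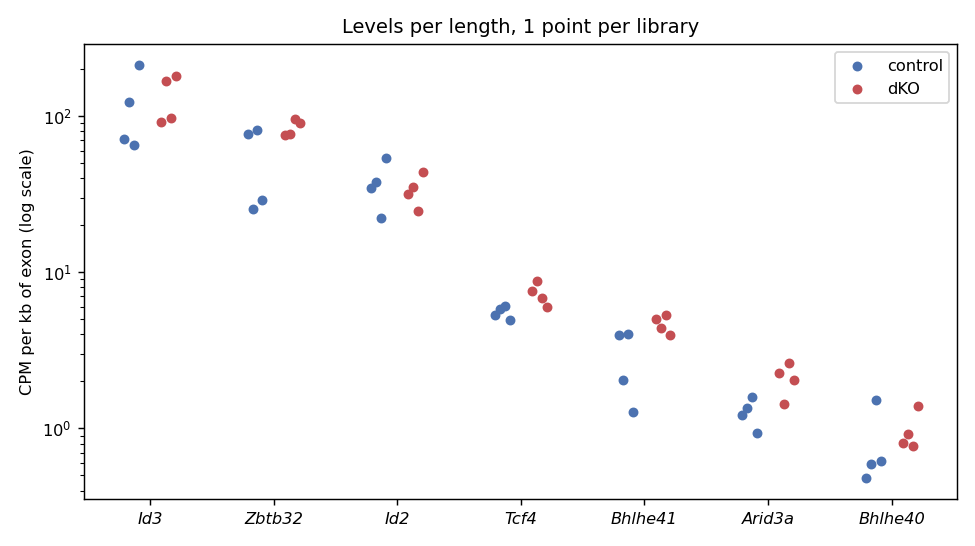
Level of each detected regulator in CPM per kb of exon on a log axis, 1 point per library, blue for control and red for dKO. The ID proteins and Zbtb32 lie above the other regulators in mean level, from 126 for Id3 down to 0.889 for Bhlhe40.

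The balance between inhibitors and E proteins was read from the same per-length levels. The sum of Id1, Id2 and Id3 over the sum of Tcf3, Tcf4 and Tcf12 was 8.76, 10.5, 7.02 and 22.7 in controls 1 to 4 and 7.37, 13.4, 8.54 and 17.6 in dKO. Replicate 4 had the highest ratio in both genotypes and the groups overlapped. Tcf4 made up 38.2% to 48.5% of the E protein sum in controls and 45.4% to 57.7% in dKO. The levels depend on the length used. By longest coding transcript the ratio was 4.08 to 13.98 in controls and 4.45 to 10.5 in dKO, and Tcf4 made up 57.1% to 66.1% and 64.3% to 73.8% of the E protein sum, and the groups overlapped again.

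Between regulators, Bhlhe41 and Zbtb32 varied together most, with Pearson r = 0.92 over 8 libraries and 0.28 over the 6 without controls 2 and 4. Id2 and Id3 had r = 0.81, and 0.71 without those libraries. These values describe shared variation between libraries that include both genotypes and differ in marker content. The genes most alike to Bhlhe41 among 7346 candidates with at least 5 CPM on average were Nrp2 (r = 0.99), Lilra6 (0.98) and Ugdh (0.97), which kept r of 0.87 to 0.89 without controls 2 and 4. For Bhlhe40 they were Nupl2 (0.94), Adgre1 (0.93) and Mzt2 (0.92). Adgre1, which encodes the macrophage antigen F4/80, was at 44.4 CPM in control 3, the high Bhlhe40 library, and at 5.19 to 9.97 CPM in the other controls. The mean of myeloid markers was 0.63 log2 CPM in control 3 and 0.12 to 2.92 in the other controls, with 6 of 12 markers below 1 CPM on average. Of these markers Cd14 (17.7 CPM) and Itgam (14.2 CPM) were highest among controls in control 3. Lyz2, Fcgr3, S100a8, S100a9 and Csf1r were highest among controls in control 4. Their part in the Bhlhe40 values was not tested.

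For Arid3a the nearest genes were Dcun1d2 (0.95), Fam20b (0.95) and Galns (0.94). Zbtb32 was most like Itgb1 (0.99), an integrin chain, then Cyp4f16 (0.98) and Slc7a7 (0.98), but without controls 2 and 4 the r values were 0.50, 0.47 and -0.21. Tcf4 was closest to Hpse (0.98), Mob3b (0.97) and Ttc3 (0.97), and Id2 to Lta (0.96), which encodes lymphotoxin alpha, Rras (0.95) and Pank2 (0.94). Id3 was closest to Zbtb25 (0.98), Lef1 (0.97), a partner of WNT signalling, and Ube2v1 (0.96).

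The genes around the regulators were read in 7 lists, which hold 48 tested genes besides the regulators. edgeR called 0 of them, DESeq2 called Vpreb3, Nfatc1 and Prdm1 (2.83% of all genes called), and limma voom called Nfatc1 (2.48% of all genes called). By edgeR 7 of the 48 had an unadjusted p under 0.05 (4 higher and 3 lower in dKO), against 10.8% of all genes. A fold change above 0 was seen in 20 of the 48, against 47.7% of all genes. In 5 of the 48 the groups did not overlap, against 6.96% of all genes. Among E and ID proteins 6 genes were tested, 4 above and 2 below 0, with a median of 0.14. Tcf3 (-0.0035) and Tcf12 (0.088) lay near 0.

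On the LIN28 and let-7 axis 5 of 12 genes could be tested, 3 above 0 and 2 below, with a median of 0.12. Igf2bp3, an RNA-binding protein of the fetal programme, was at 1.05 ± 0.791 CPM in controls and 0.328 ± 0.189 in dKO (log2 fold change -1.67 ± 0.69, adjusted p 0.41). Control 1 was its highest library at 2.19 CPM, and without it the log2 fold change was -1.02 (adjusted p 0.60). The uridylyltransferases that act with LIN28 in let-7 turnover, Zcchc11 (0.23) and Zcchc6 (0.12), and Dicer1 (0.22) differed less. For the ARID3 family and partners 5 of 6 were tested, with a median of 0.18. Besides Arid3a these included Arid3b (-0.098), Gtf2i (0.18) and E2f1 (0.18), while Arid3c had 0 counts.

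Clock genes, some of which BHLHE40 and BHLHE41 repress in other tissues, split evenly, with 5 above and 5 below 0 of 10 tested. Their median was -0.061. The list also holds Clock and Arntl, so the split is not a count of repressed targets alone. Nr1d1, which encodes REV-ERB alpha, was at 0.701 ± 0.367 CPM in controls and 1.82 ± 0.530 in dKO (1.37 ± 0.51, adjusted p 0.33), without overlap. Arntl was at 9.23 ± 3.74 and 5.45 ± 0.644 CPM (-0.76 ± 0.29, adjusted p 0.36), and Cry1 at 7.80 ± 0.937 and 5.80 ± 0.921 CPM (-0.43 ± 0.21, adjusted p 0.51). Dbp had a log2 fold change of -0.46, and -0.081 without control 1. Nr1d1 was at 0.85 without controls 2 and 4.

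All 10 MHC class II genes tested, the group on which ZBTB32 acts through CIITA, had a fold change below 0 with all 8 libraries. Their median was -0.21 and 0 were called. For all 10 genes controls 2 and 4 were the highest controls. The H2-DMb2 mean was 1514 CPM in controls and 1263 in dKO (-0.26), H2-DMb1 had -0.25, H2-DMa -0.24 and H2-Ob -0.26. Without controls 2 and 4 the last 3 were at 0.040, 0.064 and 0.36, while H2-DMb2 stayed below 0 in each of 18 alternatives. H2-Eb1 was at 5357 and 4997 CPM in controls 1 and 3, below every dKO library (5545 to 6749). It was at 9302 and 8430 CPM in controls 2 and 4. H2-Oa was at 181 and 122 CPM in controls 1 and 3, also below every dKO library (206 to 290.5), and at 601 and 367 in controls 2 and 4. Ciita itself was at 52.0 and 50.1 CPM (-0.052).

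Of genes that E proteins activate in early B cells 8 of 12 were tested, 4 above and 4 below 0, with a median of -0.0071. Vpreb3, a pre-B cell receptor chaperone, was at 39.4, 90.7, 47.5 and 228 CPM in controls and at 7.97, 3.53, 12.99 and 33.1 CPM in dKO. The groups did not overlap, and the log2 fold change was -2.81 ± 0.80 with an adjusted p of 0.23 in edgeR and 0.032 in DESeq2. Its highest controls were 2 and 4, and without them the log2 fold change was -1.59 (adjusted p 0.46). It was -1.67 with the follicular covariate and -3.65 to -2.04 with each library left out, the ends being without dKO 4 and without control 4. Il7r, the receptor named in the series title, was at 6.93 ± 2.80 and 12.0 ± 3.61 CPM (0.79 ± 0.32, adjusted p 0.40). Its log2 fold change was 1.39 without controls 2 and 4 (adjusted p 0.10), and with the follicular covariate 1.34 (adjusted p 0.12). Ebf1 (-0.34) and Vpreb1 (-0.30) were the other genes of the list with the smallest p.

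Other nuclear factors with B-1 phenotypes in mice gave 4 above and 4 below 0 of 8 tested, with a median of 0.066. Nfatc1, needed for B-1a cells, was at 46.1, 54.3, 41.2 and 36.7 CPM in controls and at 73.0, 65.6, 67.8 and 59.8 CPM in dKO. Every dKO library was above every control, and the log2 fold change was 0.58 ± 0.15 with an adjusted p of 0.15 in edgeR, 0.033 in DESeq2 and 0.019 in limma voom. Prdm1, which encodes BLIMP1, was at 2.81, 0.707, 2.11 and 1.41 CPM in controls and 3.84, 5.24, 4.47 and 4.12 CPM in dKO, again without overlap (1.33 ± 0.39, adjusted p 0.20 in edgeR and 0.048 in DESeq2). Leaving out controls 2 and 4 gave 0.85 (adjusted p 0.28). Summed plasma cell markers, Prdm1 among them, were at 2066 to 3112 CPM in controls and 3234 to 3908 CPM in dKO, most of it Mzb1, a chaperone of antibody-secreting and B-1 cells (1893 to 2942 and 3101 to 3734 CPM). The mean log2 CPM of the list overlapped, at 3.33 to 4.03 and 3.62 to 4.17, and Sdc1, which marks plasma cells, had 4 to 108 counts in controls and 2 to 14 in dKO. Their part in the Prdm1 values was not tested. Pou2f2 had a log2 fold change of 0.55 (adjusted p 0.48), and 0.22 without dKO 3, its highest library at 60.2 CPM. Bach2, a repressor of plasma cell fate, was at 8.60, 40.8, 7.71 and 20.9 CPM in controls and 9.14 to 14.7 CPM in dKO, with its high values in controls 2 and 4 (-0.74 ± 0.49, adjusted p 0.66, -0.086 without control 2 and 0.52 without both).

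**Figure D5:**
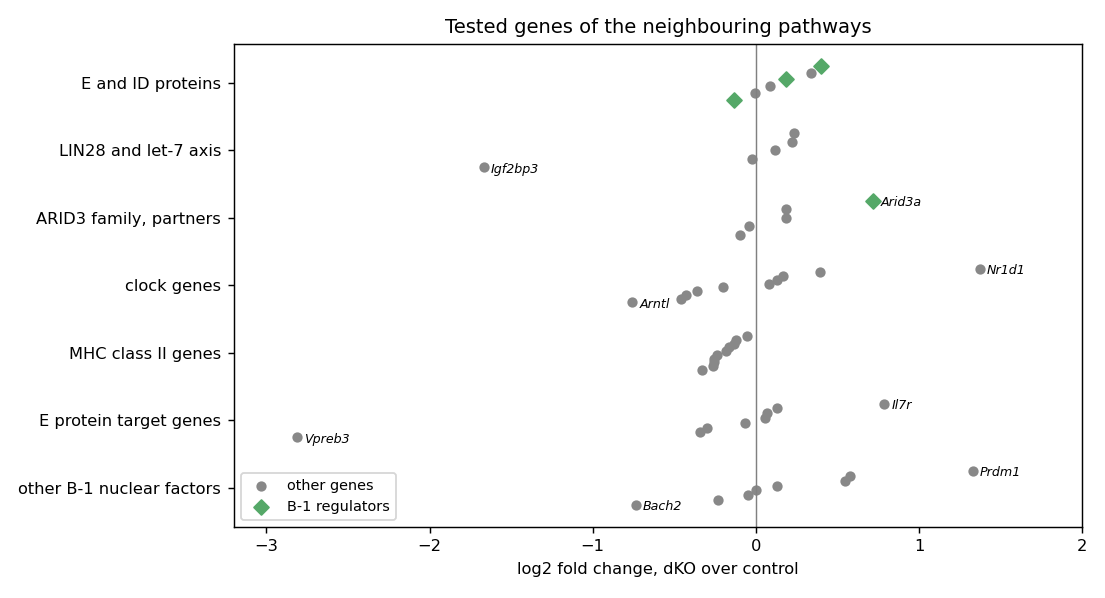
Log2 fold change (dKO over control, all 8 libraries) of every tested gene in the 7 lists around the regulators, 1 point per gene, green diamonds for regulators. The MHC class II genes lie at or below 0 with a median of -0.21, and Vpreb3 at -2.81, Igf2bp3 at -1.67 and Nr1d1 at 1.37 lie farthest out.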

How the data were processed

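RNA from sorted cells was amplified by SMART-seq, per the labels' protocols. The deposited table holds read counts for each gene, unscaled, as the authors made them. Per the submitters' processing notes, Trimmomatic, STAR, featureCounts and the GRCm39 build were used, without versions. The annotation and the strandedness of counting are likewise not given in the sources used here. Codes in the sample descriptions tied columns to libraries. A further 3 columns without a name, holding summaries, were left aside. Among counts below 20, 72.7% to 77.3% per library were even, as when both mates of a pair are counted. For libraries of 1 group, chi-square over its degrees of freedom was at least 31.3, so none were duplicates. The series text gives 4 mice per group. Limits from counts use unscaled totals, take counts as independent and cover counting error only.

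Genes were filtered with filterByExpr, TMM-scaled and fitted by genotype alone in edgeR 4.0.16 (quasi-likelihood test, R 4.3.3), and p-values were adjusted (Benjamini-Hochberg) over all 11363 genes. CPM values use TMM-scaled totals, and log2 CPM a prior count of 2. DESeq2 1.42.0 and limma 3.58.1 voom were alternatives, with other scalings, filters, a replicate block, halved counts and each library left out. The regulators, lists and markers were chosen with earlier results of these data known. Named are the 8 regulators, the 3 genes most alike to each by Pearson r, and up to 4 genes per list with the smallest p. Other genes were named after their values were seen. Exon lengths come from GENCODE M21 (GRCm38), another build than that of the counts.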

Additional observations from a re-analysis of the deposited data

Results flagged for a closer look

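The regulators and the genes named from the 7 lists were examined for outlying libraries, in 64 groups of 4 libraries (each genotype apart). In 2 groups a library lay far from the others by the gap to its neighbour over the whole range, past Dixon's 95% critical value. Chance gives about 1 such group in 20. Bhlhe40 in control 3 was at 7.18 CPM, with the other controls at 2.26 to 2.90 CPM, a gap of 0.869 of the range. Zcchc6 in control 1 was at 18.99 CPM, with the other controls at 28.3 to 30.0 CPM, a gap of 0.845 of the range. The genes most alike to the regulators were not examined by this rule. Among them Nupl2 was at 10.1 CPM in control 3 and at 4.74 to 5.28 CPM in the other controls. Adgre1 was at 44.4 CPM in control 3 and at 5.19 to 9.97 CPM in the other controls.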

How the results depend on the processing

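The number of genes called moved from 10 to 40 without a filter, 322 in DESeq2, 282 in limma voom, 75 at an adjusted p under 0.1, 59 without controls 2 and 4, and 4 to 98 with each library left out in turn (98 without control 1, 30 without control 3, 18 without control 2, 7 without control 4 or dKO 1 and 4 without dKO 2, 3 or 4). Of the regulators 0 were called in each of 19 alternatives. Outside them DESeq2 called Vpreb3 (1 gene of the E protein target list) and Nfatc1 and Prdm1 (2 of the other nuclear factors), and limma voom called Nfatc1 (1). With each library left out the log2 fold change was 0.49 to 0.95 for Bhlhe41, 0.59 to 0.86 for Arid3a, 0.44 to 0.95 for Zbtb32 and 0.30 to 0.47 for Tcf4, and these 4 kept their direction in 18 fits each. Bhlhe41 was highest in limma voom, at 1.16 (adjusted p 0.069). Over all tested genes, same-numbered libraries did not deviate together (r = -0.0089, -0.071, 0.061 and 0.15 for numbers 1 to 4), so the numbers were not read as pairs. With the replicate block 9 genes and 0 regulators were called, and Bhlhe41 was at 0.87 and Zbtb32 at 0.86. In that edgeR fit Id2 was at -0.096 (adjusted p 0.88) and Id3 at 0.28 (adjusted p 0.65). Directions turned for Bhlhe40 (-0.041 without controls 2 and 4), Id2 (0.097 without control 4, 0.25 without controls 2 and 4, 0.29 with the follicular covariate, -0.31 to 0.097 over single libraries left out) and Id3 (-0.088 in limma voom, -0.016 without control 3, up to 0.63 over single libraries left out). Without control 1 Tcf12 was at -0.013 and Zcchc6 at -0.0037 (up to 0.18 with other libraries left out), and without control 4 E2f1 was at -0.0068 (up to 0.32). Arid3b was at 0.064 without control 2 (down to -0.28 with others left out), 0.045 without dKO 4, 0.14 without controls 2 and 4 and 0.061 with the covariate. H2-DMb1 was at 0.040 without controls 2 and 4, and H2-DMa at 0.064, with 0.029 under the covariate. H2-Ob was at 0.034 without control 2 (down to -0.45 with others left out), 0.36 without controls 2 and 4 and 0.34 with the covariate. Vpreb1 was at 0.048 and 0.032 and Bach2 at 0.52 and 0.43 in the last 2 fits. Igf2bp3 could be fitted in 16 of 18 alternatives. The fits without controls 2 and 4 and with the covariate were chosen after seeing the data. The cause of these shifts was not tested. Depth limits Lin28b, with 0 counts, and precision rests on 4 libraries per group.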
